A study of Saccharomyces cerevisiae with 11 samples.

Results

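The transcribed spacers of ribosomal RNA are the stretches of the ribosomal RNA precursor that are cut out and destroyed while the mature rRNAs are made. Budding yeast (Saccharomyces cerevisiae) has 4 of them, the 5' external transcribed spacer (5' ETS), the internal transcribed spacers ITS1 and ITS2, and the 3' external transcribed spacer (3' ETS). They were taken by name from the deposited table of 7035 features, where 8 rows carry them: ETS1-1 and ETS1-2 (5' ETS), ITS1-1 and ITS1-2, ITS2-1 and ITS2-2, and ETS2-1 and ETS2-2 (3' ETS). The reference genome holds 2 copies of the ribosomal DNA repeat, and the 2 rows of a spacer held the same value in every library, so each spacer was counted once. The spacers were chosen by name after their TPM in the 4 groups had been seen, so the differences between the groups are described here without a test. All 4 passed the filter on low values used for the tests, with at least 1 TPM in all 11 libraries.

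RNA was measured in 4 groups of W303 cells of mating type a that differ in the SCC2 allele on a pRS413 plasmid with the HIS3 marker. Scc2 is the subunit of the cohesin loader that, with Scc4, places the cohesin ring on chromosomes. The groups were the variant R787G (3 cultures), the variant G1242V (3 cultures), an empty vector labelled NULL (2 cultures) and SCC2 WT (3 cultures), each plasmid SCC2 carrying a 7MYC tag. All groups share the chromosomal markers can1-100, ade2-1 and trp1-1 and the double alleles of leu2 (leu2-3 with leu2-112) and his3 (his3-11,15), with an SCC2-AID*-6FLAG-HYG degron copy at SCC2 and OsTIR1 under the ADH1 promoter (pMK200, URA3) at ura3-1, and all were grown in 1 mM of the auxin IAA for 9 hours, so no group was without auxin. Cultures were harvested at an OD600 between 0.4 and 0.8, and the density of each culture is not given in the sources used here. SCC2 RNA stood at 112.6 ± 16.9 scaled TPM in R787G, 90.4 ± 10.7 in G1242V, 23.2 ± 0.988 in the empty vector (SD, n = 2) and 111.5 ± 12.9 in WT (SD, n = 3 in the others). The SCC2 row does not part the plasmid copy from the chromosomal degron copy, which all groups carry. The a-specific genes MFA1, MFA2, STE2 and BAR1 were present in every group, and of the alpha-specific genes MF(ALPHA)1, MF(ALPHA)2 and STE3 lay under 12 scaled TPM in every library while SAG1 reached 40.0.

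RNA polymerase I makes one long precursor that runs from the 5' ETS through 18S, ITS1, 5.8S, ITS2 and 25S to the 3' ETS. The nuclease Rnt1 cuts in the 3' ETS early, the 5' ETS is held by U3 snoRNA and the small-subunit processome until it is cut off, ITS1 is cut to part the small-subunit from the large-subunit rRNAs, and ITS2 is cut later by Las1. Freed spacer pieces are removed by the nuclear exosome and by 5' exonucleases, and one piece of ITS1 stays on the immature small subunit until that particle is in the cytoplasm. Steady-state RNA does not tell slower removal of a spacer from faster production, and in a bulk culture fewer cells with a transcript and less RNA per cell cannot be told apart.

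In the RefSeq annotation of R64, the assembly of sacCer3, the first repeat lies on the minus strand of chromosome XII at 451575 to 458432 and the second at 460712 to 467569. In the first repeat the 5' ETS is at 457733 to 458432 (700 bases), ITS1 at 455572 to 455932 (361 bases), ITS2 at 455182 to 455413 (232 bases) and the 3' ETS at 451575 to 451785 (211 bases). All are noncoding parts of the precursor RDN37. The copies of each spacer in the 2 repeats differ at 0 bases, so 50-base reads cannot be assigned to one of them. G and C make up 41.9% of the 5' ETS, 36.0% of ITS1, 38.8% of ITS2 and 31.8% of the 3' ETS, against 44.8% of 18S, 46.2% of 5.8S and 47.9% of 25S. Their sequences are shown because the 4 pieces of this one transcript were found at very unequal levels. They are the S288C reference from RefSeq R64, written as DNA 5' to 3', and the W303 sequence was not read. In the stretch of the 5' ETS from base 450 to 681 (chrXII:457752-457983, minus strand), capitals mark runs of 10 or more bases that are perfectly complementary to the annotated U3 gene SNR17A, TCAAAGAGTG at bases 470 to 479 and ATTTCGGTTTCT at bases 650 to 661. ITS1 is shown from its first base at the end of 18S (chrXII:455633-455932), and ITS2 (chrXII:455182-455413) and the 3' ETS (chrXII:451575-451785) are shown whole, all on the minus strand.
5' ETS bases 450 to 681: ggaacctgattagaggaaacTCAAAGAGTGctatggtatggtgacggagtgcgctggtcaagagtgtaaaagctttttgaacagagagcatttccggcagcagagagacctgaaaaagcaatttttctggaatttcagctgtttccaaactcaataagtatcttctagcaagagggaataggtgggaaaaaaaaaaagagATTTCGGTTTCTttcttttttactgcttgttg
ITS1 bases 1 to 300: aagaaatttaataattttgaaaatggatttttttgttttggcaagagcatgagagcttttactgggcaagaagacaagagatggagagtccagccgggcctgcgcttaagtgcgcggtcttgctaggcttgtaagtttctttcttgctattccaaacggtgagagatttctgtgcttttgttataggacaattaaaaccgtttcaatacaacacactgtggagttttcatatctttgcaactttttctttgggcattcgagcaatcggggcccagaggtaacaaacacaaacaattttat
ITS2: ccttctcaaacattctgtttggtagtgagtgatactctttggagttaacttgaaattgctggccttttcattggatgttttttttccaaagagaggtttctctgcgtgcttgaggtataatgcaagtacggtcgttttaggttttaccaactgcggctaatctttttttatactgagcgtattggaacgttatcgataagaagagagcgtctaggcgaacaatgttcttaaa
3' ETS: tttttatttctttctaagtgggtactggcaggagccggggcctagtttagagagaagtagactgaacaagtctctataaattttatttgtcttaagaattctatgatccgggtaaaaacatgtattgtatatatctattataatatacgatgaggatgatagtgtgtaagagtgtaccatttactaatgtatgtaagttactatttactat

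The run at bases 470 to 479 pairs with bases 196 to 205 of the annotated 490-base U3 gene, CACTCTTTGA, and the longer run with bases 271 to 282, AGAAACCGAAAT. Positions are those of the annotated gene, and their place in the mature U3 RNA was not determined. A run of 10 or more bases complementary to this gene is common. It was found in 42.6% of 34472 windows of 700 bases over the nuclear genome, both strands counted, and a run of 12 or more in 4.06%. The matches describe letters only.

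Values are TPM, transcripts per 1000000, which the authors' tool RSEM estimates per length of a feature. They were multiplied by one factor per library (scaled TPM). TPM keep no sequencing depth, so counting error is unknown and shows only in the spread between libraries. The libraries were depleted of rRNA, and rows of mature and whole-precursor rRNA took 0.155% to 0.494% of the TPM in 10 libraries but 9.19% in WT replicate 2. The spacers took 0.264% to 0.364% in the 11 libraries, and WT replicate 2 is the lowest of them. What depletion left or removed of spacers still joined to mature rRNA was not tested.

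The spacers of one transcript stood at very different levels per length. In every library the 5' ETS was highest and ITS1 second, and ITS2 and the 3' ETS were the lowest. The highest spacer stood above the lowest by 195-fold to 269.5-fold in the R787G libraries, 239-fold to 421-fold in G1242V, 278-fold and 281-fold in the empty vector, and 408-fold to 597-fold in WT. Averaged over the 11 libraries the 5' ETS had 1371 scaled TPM, the rank 74 among 6432 features tested, and ITS1 had 188.0, rank 868. The 3' ETS averaged 5.51 scaled TPM, rank 5697, and ITS2 5.36, rank 5703. The order of the 2 low spacers changed with the group. The 3' ETS was above ITS2 in the 3 R787G and the 3 G1242V libraries, and ITS2 was above the 3' ETS in both empty vector and all 3 WT libraries.

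**Figure D1:**
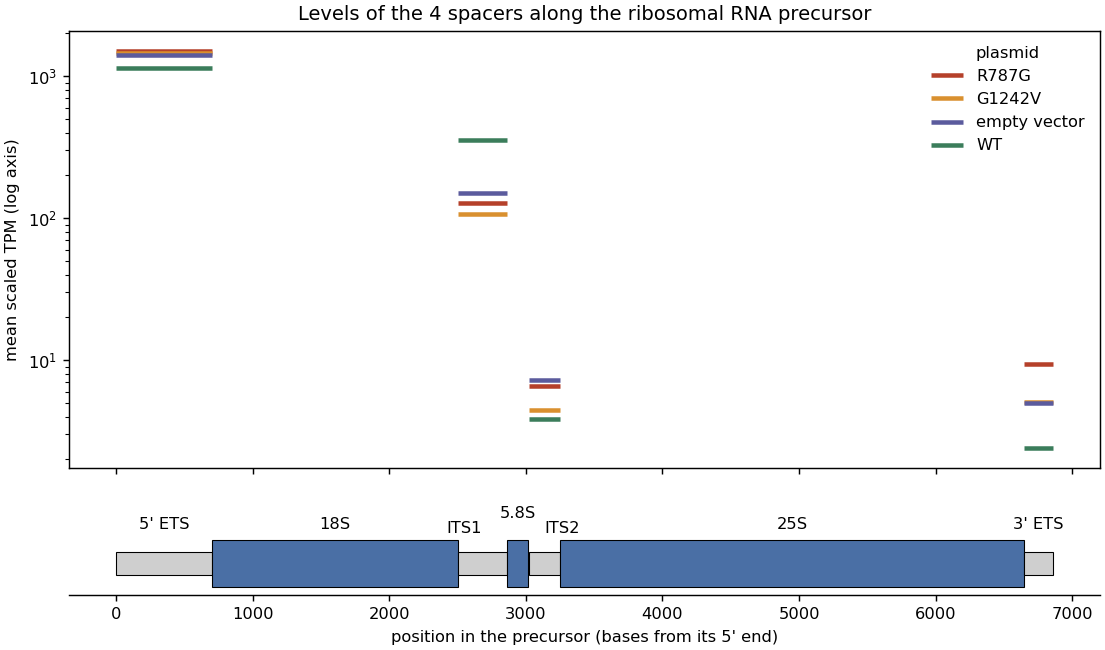
Mean scaled TPM of each spacer (log axis) drawn over its place in the 6858-base precursor, in bases from the precursor's 5' end, with 1 line per group; the lower track shows spacers in grey and mature rRNAs in blue, to scale. In WT the lines step down from 1133 scaled TPM at the 5' ETS to 355.0 at ITS1 and 2.39 at the 3' ETS, and at ITS1 alone WT lies above the other groups.

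The 5' ETS, the leader of the precursor, was 1.33-fold higher in R787G, 1.29-fold higher in G1242V and 1.24-fold higher in the empty vector than in WT. It stood at 1583, 1438 and 1483 scaled TPM in R787G replicates 1 to 3. It stood at 1433, 1351 and 1598 in G1242V replicates 1 to 3. The empty vector had 1371 and 1428, and WT had 1173, 1018 and 1208 in replicates 1 to 3. Every library of these 3 groups therefore lay above every WT library, and WT replicate 2 was the lowest of all. The means were 1501 ± 73.9 in R787G, 1460 ± 126 in G1242V, 1399 ± 40.7 in the empty vector and 1133 ± 101 in WT (SD, n = 3, or 2 for the empty vector). As differences of log2(scaled TPM + 1) from WT these were 0.41 for R787G, 0.37 for G1242V and 0.31 for the empty vector, where the SD between libraries of a group was 0.10 on that scale. Without WT replicate 2 they were 0.33, 0.29 and 0.23. The empty vector difference was 0.54 in the TPM as deposited, since its scaling factors were the lowest. Among these 3 groups the order of the means is no more than nominal: G1242V overlapped with R787G and with the empty vector, and R787G lay above the empty vector by a gap of 1438 to 1428 scaled TPM that was not there in the TPM as deposited. In those TPM G1242V lay below the empty vector without overlap instead, with a log2 difference of -0.20.

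ITS1, which lies between 18S and 5.8S, was the one spacer below WT, and it was below WT in R787G, G1242V and the empty vector by 2.37-fold to 3.33-fold. R787G replicates 1 to 3 had 156.5, 99.6 and 126.6 scaled TPM. G1242V had 120.1, 81.6 and 118.0, the empty vector 159.8 and 140.3, and WT 414.7, 339.2 and 311.0. Every WT library thus lay far above every library of the other groups. The means were 127.6 ± 28.5 in R787G, 106.6 ± 21.7 in G1242V, 150.0 ± 13.8 in the empty vector and 355.0 ± 53.6 in WT (SD, n = 3, or 2 for the empty vector). The difference from WT was -1.48 for R787G, -1.74 for G1242V and -1.23 for the empty vector in log2(scaled TPM + 1), with an SD of 0.27 between libraries of a group. Without WT replicate 2 it was -1.51, -1.76 and -1.26. Among these 3 groups, G1242V lay below the empty vector without overlap (106.6 against 150.0 scaled TPM), where 46.0% of all features tested did likewise. R787G overlapped with G1242V and with the empty vector.

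ITS2, between 5.8S and 25S, was near the lower end of what the table holds. It stood at 5.87, 6.29 and 7.59 scaled TPM in R787G replicates 1 to 3, at 3.83, 5.65 and 3.79 in G1242V, at 6.08 and 8.30 in the empty vector, and at 5.15, 3.70 and 2.69 in WT. R787G and the empty vector lay above every WT library, while G1242V overlapped with WT. The means were 6.58 ± 0.893 in R787G, 4.42 ± 1.06 in G1242V, 7.19 ± 1.57 in the empty vector and 3.85 ± 1.23 in WT. As log2 differences from WT these gave 0.67 for R787G, 0.18 for G1242V and 0.78 for the empty vector, beside an SD of 0.28. Without WT replicate 3 the G1242V value was -0.0043, and without WT replicate 1 it was 0.36. With 5 added in place of 1 the values were 0.40, 0.095 and 0.47. The row of the whole precursor (RDN37) is high in WT replicate 2 alone. With it added to ITS2, as if even along the precursor, the values were -1.08, -1.57 and -0.97. Both R787G and the empty vector lay above G1242V without overlap, and R787G and the empty vector overlapped with each other.

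The 3' ETS, where Rnt1 makes the first cut, was higher than in WT in R787G, G1242V and the empty vector and highest in R787G. R787G replicates 1 to 3 had 8.02, 9.65 and 10.6 scaled TPM. G1242V had 4.91, 5.84 and 4.47, the empty vector 4.93 and 5.09, and WT 2.87, 1.70 and 2.59. All R787G libraries were above all others, G1242V and the empty vector shared one range, and all WT libraries were below. The means were 9.41 ± 1.28 in R787G, 5.07 ± 0.699 in G1242V, 5.01 ± 0.112 in the empty vector and 2.39 ± 0.609 in WT, so R787G stood at 3.94 times, G1242V at 2.12 times and the empty vector at 2.10 times the WT mean. The log2 difference from WT was 1.63 for R787G, 0.85 for G1242V and 0.84 for the empty vector with an SD of 0.20, and 1.47, 0.70 and 0.69 without WT replicate 2. At these low levels the added 1 shrinks a log2 difference, and with 0.1 in its place the 3 values were 1.96, 1.08 and 1.07, while with 5 they were 0.96, 0.45 and 0.44. With the row of the whole precursor added, as if even along it, they were -0.38, -1.15 and -1.16.

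Counted together, 3 of the 4 spacers lay above WT without overlap in R787G, where 39.5% of the 6432 features tested did so, and 1 lay below, as did 31.5% of features. In G1242V 2 of 4 lay above and 1 below, beside 27.3% of features in each direction. In the empty vector 3 of 4 lay above, beside 43.7%, and 1 below, beside 30.9%. Against the empty vector, R787G had 2 of 4 above (34.7% of features) and 0 below (44.1%), and G1242V had 0 above (33.0%) and 2 below (46.0%). Against G1242V, R787G had 2 of 4 above (35.2%) and 0 below (27.8%). Groups that do not overlap are common in these data, so these counts alone say little of the spacers.

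**Figure D2:**
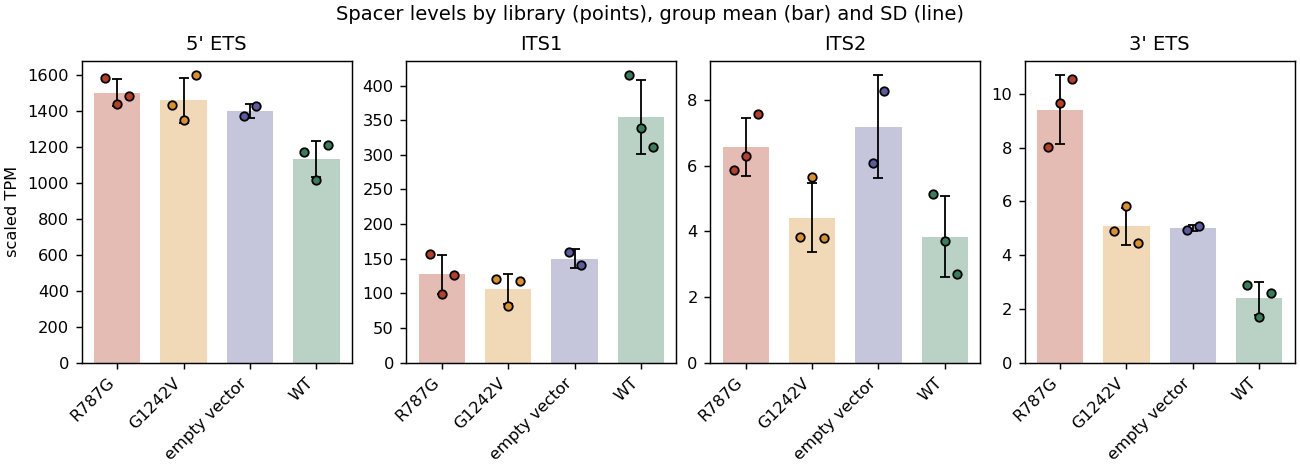
Scaled TPM of the 4 spacers, each on its own linear axis from 0, by plasmid; points are libraries, bars group means and lines the SD. WT is the lowest group in 3 of the panels and the highest in ITS1, where its libraries run from 311.0 to 414.7 scaled TPM and no other library exceeds 159.8.

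Ratios within a library do not depend on the scaling. The ratio of the 5' ETS to ITS1 set WT apart from the other groups. In R787G its values were 10.1, 14.4 and 11.7, with 11.9, 16.6 and 13.5 in G1242V, 8.58 and 10.2 in the empty vector and 2.83, 3.00 and 3.88 in WT. All 8 libraries of R787G, G1242V and the empty vector lay above all 3 WT libraries. The mean was 12.1 ± 2.19 in R787G, 14.0 ± 2.35 in G1242V, 9.38 ± 1.14 in the empty vector and 3.24 ± 0.566 in WT. Relative to ITS2, ITS1 ran from 15.8 to 26.6 in R787G, 14.4 to 31.4 in G1242V, 16.9 to 26.3 in the empty vector and 80.6 to 115.5 in WT, so here too these 3 groups lay together and apart from WT. For WT replicate 2 this ratio may depend on how reads were divided with the row of the whole precursor (RDN37). With that row added, as if even along the precursor, ITS1 had 513.9 and ITS2 178.4 scaled TPM there. That ratio is below that of every other library. The ratio of the 3' ETS to ITS2 made another division. It ran from 1.37 to 1.53 in R787G and 1.03 to 1.28 in G1242V, against 0.613 and 0.811 in the empty vector and 0.461 to 0.961 in WT. Both variants thus lay above both the empty vector and WT, which overlapped with each other, and R787G lay above G1242V. The ratio of the 3' ETS to the 5' ETS was 0.507% to 0.712% in R787G, 0.280% to 0.432% in G1242V, 0.356% and 0.360% in the empty vector and 0.168% to 0.245% in WT. Its lowest value, that of WT replicate 2, may also depend on how reads were divided. With the precursor row added, that library had 176.4 scaled TPM at the 3' ETS and 1192 at the 5' ETS, a ratio above that of every other library. WT replicates 1 and 3 had 0.245% and 0.214%.

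**Figure D3:**
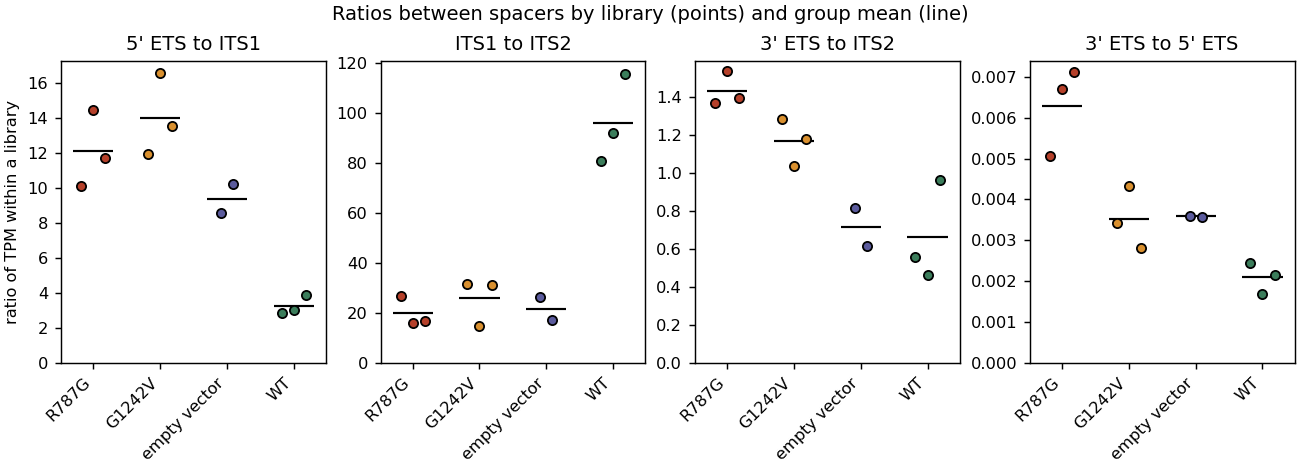
Ratios of deposited TPM between spacers within each library (linear axes from 0); points are libraries and lines group means. The 5' ETS to ITS1 panel puts WT at 2.83 to 3.88 under all other libraries, and the 3' ETS to ITS2 panel puts both variants above the empty vector and WT.

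The rows of mature rRNA did not separate the groups in the same way. The 18S row (RDN18) had 461.7 to 890.8 scaled TPM in R787G, 460.7 to 947.4 in G1242V, 580.7 and 1342 in the empty vector, and 1246, 38589 and 573.7 in WT replicates 1 to 3. The 25S row (RDN25) had 250.0 to 632.1 in R787G, 246.1 to 574.6 in G1242V, 341.7 and 719.4 in the empty vector, and 695.3, 8697 and 297.5 in WT. Apart from WT replicate 2, these ranges overlapped between all groups. The levels are what depletion left and not the cells' rRNA content. The row of the whole precursor (RDN37) was listed at 0 in 8 libraries, at under 0.1 scaled TPM in G1242V replicate 3 and empty vector replicate 2, and at 174.7 in WT replicate 2, where the 5.8S row (RDN58) was listed at 0 against 93.1 to 191.2 scaled TPM in the others. The precursor row shares sequence with the 18S, 5.8S and 25S rows and with every spacer row, so RSEM divides reads between them. With the precursor row added to the spacer rows, WT replicate 2 came to 176.4 scaled TPM at the 3' ETS and 178.4 at ITS2, far above every other library. These sums take the precursor row as even along the whole precursor. TPM do not show whether its reads lie in spacers or in mature rRNA. How far the 3' ETS and ITS2 values of WT replicate 2 depend on how those reads were divided was not tested. WT replicates 1 and 3, where the precursor row is at 0, gave the directions described above for every spacer.

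**Figure D4:**
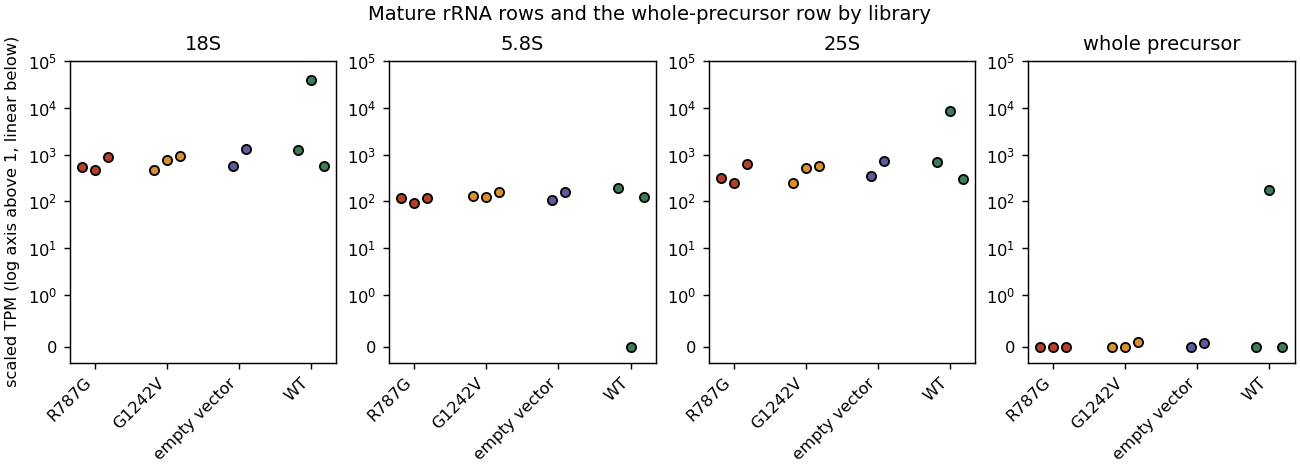
Scaled TPM of the mature rRNA rows and of the whole-precursor row by plasmid, with 1 point per library and a log axis that is linear below 1. WT replicate 2 stands apart with 38589 at 18S, 8697 at 25S, 174.7 at the whole precursor and 0 at 5.8S.

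The features outside the repeat with the most similar patterns were found by the root-mean-square difference of centred log2 values over the 11 libraries, among 5484 features averaging at least 10 scaled TPM. For the 5' ETS they were the GPI anchor synthesis gene GPI15 (0.060), the signal peptidase gene SPC3 (0.073) and the TFIIH gene TFB4 (0.075), where the median feature had 0.31. For ITS1 they were the alcohol dehydrogenase gene ADH6 (0.22), YPL119C-A (0.24) and the Ccr4-Not gene CAF130 (0.24), beside a median of 0.77. ADH6, for example, averaged 263.6 scaled TPM in R787G, 224.3 in G1242V, 276.0 in the empty vector and 687.1 in WT. For ITS2 they were the phospholipase gene PLB2 (0.16) and 2 genes of pre-rRNA processing, FCF2 (0.17) and the helicase gene RRP3 (0.17), beside a median of 0.45. For the 3' ETS they were the ribosomal protein gene RPS27A (0.17) and the lipid synthesis genes ELO2 (0.18) and ERG3 (0.20), beside a median of 0.65. The differences are in log2 units and describe likeness only.

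The machinery that makes, cuts and removes the precursor was looked at through 107 transcripts in 10 lists, tested with limma on log2(scaled TPM + 1) over all 6432 features. Values are log2 fold changes ± SE against WT, called at a Benjamini-Hochberg adjusted p under 0.05. The lists were chosen with earlier results of these libraries known. All 3 comparisons share the WT libraries.

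In R787G most of the machinery was higher, 73 of 107 transcripts against 8 lower, with a median of 0.53 beside 0.067 for all features. Of all features 65.8% were called, 36.5% higher and 29.3% lower. All 21 genes that bind the 5' ETS rose (median 0.98), led by the U3 protein genes NOP56 (1.6 ± 0.19, adjusted p = 6.02e-05) and SNU13 (1.29 ± 0.23, adjusted p = 6.38e-04). NOP56 stood at 320.4, 320.7 and 339.5 scaled TPM in R787G and at 144.1, 96.8 and 87.3 in WT. Of 14 RNA polymerase I subunit genes 13 rose (median 0.97), with RPA49 (1.37 ± 0.17) and RPA135 (1.35 ± 0.21) first. RNT1, the gene of the 3' ETS nuclease, rose by 0.89 ± 0.095 (adjusted p = 2.83e-05), with 37.7, 35.9 and 37.8 scaled TPM in R787G against 22.4, 18.2 and 18.2 in WT. For ITS2, 8 of 9 genes rose, among them NOP7 (1.52 ± 0.18) and ERB1 (1.36 ± 0.21) of one large-subunit assembly complex, and the nuclease gene LAS1 fell (-0.63 ± 0.081, adjusted p = 9.68e-05). For ITS1, 11 of 15 rose, with RRP5 (1.07 ± 0.19) and RCL1 (0.86 ± 0.16) first, and the RNase MRP genes RMP1 (-0.43 ± 0.080) and POP1 (-0.36 ± 0.052) fell. Of 18 exosome and TRAMP genes 10 rose, such as the helicase gene MTR4 (1.03 ± 0.17) and LRP1 (0.80 ± 0.097), and AIR2 (-0.17 ± 0.064) was called lower, a call that ended in 12 of 18 alternatives.

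In R787G 36.5% of all features were called higher and 29.3% lower. Of 12 initiation and termination factors of RNA polymerase I, 4 rose and 2 fell, near or under these shares. Their median was 0.068, beside 0.067 for all features. Those that rose included RRN3 (0.56 ± 0.13), which makes the polymerase ready to initiate, and the core factor gene RRN7 (0.55 ± 0.10). SPT15, the TATA-binding protein gene used by all polymerases (-1.1 ± 0.18), and REB1 (-1.05 ± 0.063), whose product binds the rDNA terminator among many other sites, fell. Of 8 genes of rDNA silencing and repeat stability 4 rose, with CDC14 (0.56 ± 0.091) and TOF2 (0.53 ± 0.085) first, and LRS4 fell (-0.36 ± 0.090). Of the 5' exonuclease genes XRN1 fell (-0.36 ± 0.064), and RAT1 (-0.017 ± 0.096) did not pass. Of the 6 RNAs that act in cleavage, the U3 copy SNR17B rose (0.32 ± 0.090) while SNR17A (-0.13 ± 0.12), SNR128 (0.021 ± 0.085), SNR10 (0.067 ± 0.16), SNR30 (-0.035 ± 0.11) and the RNase MRP RNA NME1 (0.093 ± 0.12) did not pass. The 2 U3 genes share most of their sequence, so the split of reads between them is uncertain, and SNR10 and SNR17A each overlap another annotated gene.

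In G1242V, whose 5' ETS overlapped with that of R787G, 10 of 107 machinery transcripts rose and 26 fell, with a median of -0.038 beside 0.002 for all features, of which 54.0% were called, 26.6% higher and 27.3% lower. The number higher was 6 without G1242V replicate 1 or 2 and 16 without WT replicate 1. Whether the 2 variants differ from each other in these genes was not tested. Of the 21 genes that bind the 5' ETS 1 was called, NOP56 (0.64 ± 0.19, adjusted p = 0.0179), and that call ended in 5 of 18 alternatives. RNT1 (0.083 ± 0.095, adjusted p = 0.495) did not pass, with 20.2, 23.5 and 18.8 scaled TPM in G1242V against 22.4, 18.2 and 18.2 in WT. All 3 genes of the 5' exonuclease list fell, with RAT1 (-0.54 ± 0.096) and XRN1 (-0.45 ± 0.064) furthest. So did 7 of 18 exosome and TRAMP genes, led by the catalytic subunit genes RRP6 (-0.47 ± 0.11) and DIS3 (-0.43 ± 0.084). Of the initiation and termination factors 7 of 12 fell, SPT15 (-1.29 ± 0.18), REB1 (-1.01 ± 0.063) and RRN3 (-0.52 ± 0.13) among them, while RRN9 (0.28 ± 0.066) and HMO1 (0.24 ± 0.076) were called higher. Of 14 polymerase I subunit genes 4 rose, with RPO26 (0.52 ± 0.11) and RPB10 (0.51 ± 0.096), subunits shared with the other polymerases, first, and RPA14, which overlaps another annotated gene, was called lower (-0.35 ± 0.12).

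For ITS2, 1 of 9 genes was called in G1242V, LAS1 (-0.75 ± 0.081, adjusted p = 4.61e-05), which fell. For ITS1, POP7 rose (0.29 ± 0.054) and 4 of 15 fell, among them NOB1 (-0.38 ± 0.12), the nuclease gene for the last cut at 18S, and RMP1 (-0.36 ± 0.080). In the rDNA list TOF2 (0.44 ± 0.085) and CDC14 (0.34 ± 0.091) rose, and 3 of 8 fell, among them the silencing deacetylase gene SIR2 (-0.41 ± 0.12) and the fork block gene FOB1 (-0.34 ± 0.057). Beside these counts, 26.6% of all features were called higher in G1242V and 27.3% lower. None of the 6 RNAs passed, where SNR17A had -0.038 ± 0.12, SNR17B 0.19 ± 0.090, SNR128 0.18 ± 0.085, SNR10 0.34 ± 0.16, SNR30 0.074 ± 0.11 and NME1 0.25 ± 0.12. The calls of HMO1 and NOB1 ended in 5 of 18 alternatives each, that of RPA14 in 7, and those of CDC14 and SIR2 in 1 each, while SNR128 was called higher in 1, without WT replicate 2.

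In the empty vector 64 of 107 transcripts rose and 12 fell, with a median of 0.43 beside 0.089 for all features, of which 62.0% were called, 36.8% higher and 25.2% lower. Without empty vector replicate 2, 41 rose and 7 fell. In the TPM as deposited 84 rose and 5 fell, the median of all features was 0.31, and 78.3% of all calls were higher in place of 59.3%. Of the 21 genes that bind the 5' ETS 18 rose (median 0.68), with NOP56 (1.1 ± 0.22) and UTP21 (0.90 ± 0.22) first. Of 14 polymerase I subunit genes 10 rose, led by RPA49 (0.99 ± 0.19) and RPA12 (0.81 ± 0.19), and RNT1 rose by 0.66 ± 0.11 (adjusted p = 4.69e-04), with 31.7 and 31.1 scaled TPM in the empty vector against 22.4, 18.2 and 18.2 in WT. For ITS2, 8 of 9 genes rose, with NOP7 (1.26 ± 0.20) and CIC1 (1.03 ± 0.19) first, and LAS1 fell (-0.58 ± 0.091). Thus LAS1 fell in all 3 comparisons, which share their WT libraries. It was not alone in this. Among others, SPT15, REB1 and XRN1 were also called lower in all 3. So were RMP1, POP1 and LRS4, whose empty vector calls ended in some alternatives.

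In the empty vector 36.8% of all features were called higher and 25.2% lower. For ITS1, 7 of 15 genes rose there, RRP5 (0.73 ± 0.21) and RCL1 (0.65 ± 0.17) among them, and RMP1 (-0.30 ± 0.090) and POP1 (-0.21 ± 0.058) were called lower. Of the initiation and termination factors 5 of 12 rose, with RRN3 (0.90 ± 0.15) and RRN7 (0.48 ± 0.11) first, and 4 fell, with REB1 (-1.36 ± 0.071) and SPT15 (-1.04 ± 0.20) furthest. The median of these 12 factors was 0.076, beside 0.089 for all features, and their counts are near the shares of all features. Of the exosome and TRAMP genes 9 of 18 rose, such as LRP1 (1.07 ± 0.11) and the poly(A) polymerase gene TRF5 (0.97 ± 0.13), and 3 were called lower, among them SKI6 (-0.39 ± 0.098) and AIR2 (-0.30 ± 0.072). In the rDNA list TOF2 (0.43 ± 0.095) and CDC14 (0.36 ± 0.10) were among 4 of 8 that rose, and LRS4 (-0.27 ± 0.10) was called lower. XRN1 fell (-0.50 ± 0.071), while RAT1 (0.17 ± 0.11) did not pass. Of the 6 RNAs SNR10 (0.57 ± 0.18) and SNR17B (0.43 ± 0.10) rose, and SNR17A (0.052 ± 0.14), SNR128 (0.060 ± 0.095), SNR30 (0.20 ± 0.12) and NME1 (0.16 ± 0.14) did not pass. In the TPM as deposited SKI6, AIR2, RMP1, POP1 and LRS4 lost their calls, POP1 with a value of 0.017, and RAT1, SNR128, SNR30 and NME1 were called higher. Without 1 of the empty vector libraries RRP5, RCL1, CDC14, RMP1, POP1, LRS4, SKI6, SNR10 and SNR17B lost theirs, and LRS4 did so in 9 of 18 alternatives.

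**Figure D5:**
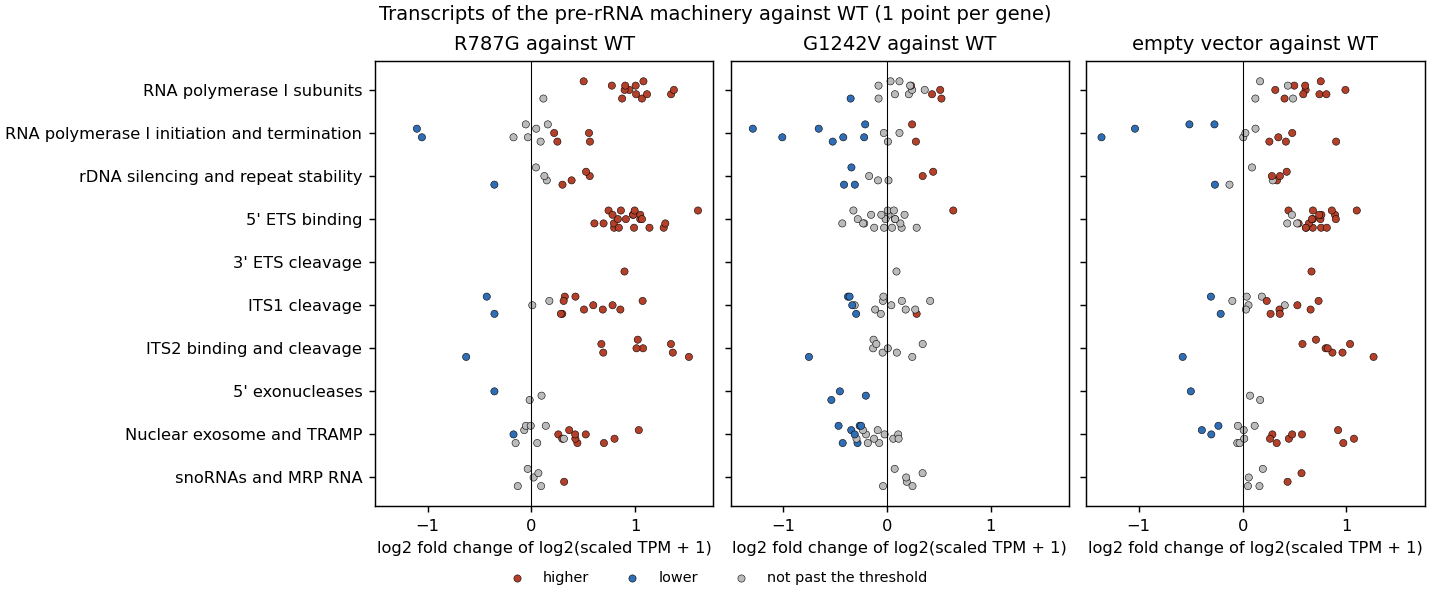
Log2 fold changes of log2(scaled TPM + 1) against WT for the 107 transcripts of the pre-rRNA machinery, 1 point per gene and 1 row per list; red was called higher, blue lower and grey not called (limma, adjusted p under 0.05). The row of genes that bind the 5' ETS holds 21 red points of 21 in R787G, 1 in G1242V and 18 in the empty vector.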

How the data were processed

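Per the labels' protocols, rRNA-depleted total RNA was made into stranded libraries and read as 50-base single reads. Per the submitters' processing notes, reads passed through bcl2fastq 2.17 and STAR, RSEM and edgeR are also named, and sacCer3 is the build. Neither annotation nor strand setting is given in the sources used here. What the authors deposited is one TPM value for each feature in each library. Of 7036 rows, 1 shifted by a field was left out. Names came from RefSeq R64, with 5955 features matched by locus tag, 122 by symbol and 958 not matched.

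Scaling used one median-of-ratios factor per library (0.882 to 1.08), from the 5221 genes that reached 10 TPM in all 11 libraries. The fit kept the 6432 features that reached 1 TPM in 2 or more libraries. It ran limma 3.58.1 (R 4.3.3) on log2(scaled TPM + 1), two-sided, with a mean trend in eBayes and Benjamini-Hochberg adjustment, all libraries together and no covariates. A run on simulated data used independent noise and far fewer changed features than were called here. That run does not give the error rate of these calls. Replicates are separate samples per the labels, and p-values measure the spread between them alone. Members and lists were chosen with earlier results of these data known. Named genes were, per list and comparison, the 2 largest rises and 2 largest falls past the threshold, RNT1, RRN3, RAT1 and the 6 RNAs, and for each spacer the 3 most similar features. Spacer levels got no test. Plots come from matplotlib 3.10.9 (Python 3.11.15).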

Additional observations from a re-analysis of the deposited data

How the results depend on the processing

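The 5' ETS to ITS1 ratio kept its direction, within the SD between libraries, in all 20 alternatives over the 3 comparisons. These alternatives left out 1 library or added the whole-precursor row. No library of the 3 groups overlapped with WT in this ratio, so leaving out 1 library could not reverse the direction and bears on the size alone. The ranges with 1 library left out were 1.76 to 2.04 (log2) for R787G, 1.99 to 2.25 for G1242V and 1.42 to 1.68 for the empty vector. Of the spacer differences, 9 of 164 alternative values changed sign. Adding the whole-precursor row, chosen after seeing the data, gave ITS2 -1.08 in R787G, -1.57 in G1242V and -0.97 in the empty vector, and the 3' ETS -0.38, -1.15 and -1.16, since that row is high only in WT replicate 2. The sum takes that row as even along the precursor, which TPM do not show. Relative to the 25S row, whose WT mean rests on that library, R787G gave 2.13 for the 5' ETS, 0.23 for ITS1, 2.54 for ITS2 and 3.73 for the 3' ETS, G1242V gave 1.90, -0.21, 1.76 and 2.65, and the empty vector gave 1.60, 0.060, 2.23 and 2.40. With WT replicate 2 also left out, chosen after seeing the data, ITS1 was -1.22, -1.66 and -1.39, while R787G moved to 0.64 for the 5' ETS, 1.12 for ITS2 and 2.08 for the 3' ETS, and the empty vector to 0.11 for the 5' ETS. G1242V ITS2 was -0.0043 without WT replicate 3.

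In the TPM as deposited the empty vector 5' ETS was 0.54, and rescaled to coding genes 0.58, where its 3' ETS was 1.07. With a pseudocount of 0.1 the 3' ETS was 1.96, 1.08 and 1.07, and with 5 it was 0.96, 0.45 and 0.44, with ITS2 of the empty vector at 0.47. With 1 library left out, the 5' ETS ranged over 0.33 to 0.46 (R787G), 0.29 to 0.42 (G1242V) and 0.23 to 0.36 (empty vector), ITS1 over -1.64 to -1.32, -1.83 to -1.56 and -1.32 to -1.11, ITS2 over 0.49 to 0.86, -0.0043 to 0.36 and 0.58 to 0.97, and the 3' ETS over 1.47 to 1.73, 0.70 to 0.96 and 0.69 to 0.95.

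Machinery counts with 1 library left out were 71 to 75 higher and 7 to 8 lower in R787G. G1242V had 6 to 16 higher and 21 to 39 lower. The empty vector had 41 to 69 higher and 7 to 12 lower. In G1242V the higher count was 6 without replicate 1 or 2 and 16 without WT replicate 1. Fitting G1242V and WT alone gave 5. In the empty vector it was 41 without replicate 2, and the lower count was 7 without either replicate and 5 in both other scalings. Deviations of same-numbered cultures had r across genes of -0.16 to 0.27, and those of differently numbered cultures -0.38 to 0.30. The numbers were not read as pairs. With values centred within such small groups, these r values cannot show that pairing is absent. With the replicate number as a block 74 rose and 7 fell in R787G, 9 rose and 28 fell in G1242V, 60 rose and 12 fell in the empty vector, and the 4 spacer differences of the empty vector were 0.36, -1.32, 0.59 and 0.89. Depth is unknown, so how far the spread of the low spacers is counting error cannot be given.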
